A study of Mus musculus with 20 samples.

Results

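The effect of dual checkpoint antibodies was read across all 20 tumours of a mouse ovarian cancer experiment, of 20 in the series, by pooling it over the 3 drug backgrounds in which the antibodies had been given. A tumour was assigned by its treatment label alone: 10 tumours came from mice that received anti-CTLA-4 and anti-PD-L1, and 10 from mice that did not, and each antibody group was set against the group with the same other drugs. RNA was measured by bulk sequencing of frozen tumour tissue. All tumours were grown from ID8 Trp53-/-Brca1-/- cells, a mouse ovarian surface epithelial line carrying deletions of both tumour suppressors and a luciferase gene, injected i.p. into female C57/BL6 mice with an intact immune system. The question of the pooled comparison was which genes the antibodies raised or lowered whatever else was given, and whether the size of that change was the same in each background.

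In the background with no other drug, the 3 control tumours came from untreated mice and the 3 CB tumours from mice given both checkpoint antibodies. In the olaparib background, the 3 PARPi tumours came from mice given the PARP inhibitor olaparib by mouth at 40 mg/kg/day, and the 3 PARPi_CB tumours from mice given olaparib and both antibodies. In the third background, the 4 PARPi_aVEGF tumours received olaparib and anti-VEGFA, and the 4 Combo tumours received olaparib, anti-VEGFA and both checkpoint antibodies. Doses per injection were 100 µg of anti-CTLA-4, 200 µg of anti-PD-L1 and 20 µg of anti-VEGFA. Mouse age, treatment length, antibody isotypes and whether the cell line was 1 clone are not given in the sources used here. The labels name a mouse with each replicate, so a replicate was read as the tumour of 1 animal, and the p-values measure the spread between those tumours.

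CTLA-4 is an inhibitory receptor of T cells that competes for the ligands CD80 and CD86, and PD-L1 is the ligand through which tumour and myeloid cells restrain T cells that carry PD-1. Antibodies to either release T cells from that restraint, and antibodies to CTLA-4 can also act on regulatory T cells, which express it strongly. Olaparib traps PARP enzymes on DNA and is lethal to cells without BRCA1, and VEGFA drives vessel growth and is itself induced by low oxygen. Macrophages that meet the type 2 cytokines interleukin 4 and interleukin 13 take on an alternative state marked by the secreted proteins Chil3 and Retnla and by arginase.

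Library totals ran from 26.9 to 34.7 M counts, and 18144 of the 55406 genes in the table had enough counts to be tested. The ovarian and mesothelial genes Wt1 and Msln, with mean levels of 937 and 262 CPM (a count scaled to a fixed library total, not to gene length), were present as the labelled tissue requires. Brca1 and Trp53 transcripts were read in every tumour, Brca1 at 10.7 to 24.6 CPM and Trp53 at 50.6 to 71.8 CPM; host cells carry both genes and the deleted parts are not given, so these levels do not check the label. CB replicate 3, PARPi_aVEGF replicates 1 and 4 and Combo replicate 2 carried pancreatic acinar RNA, with a mean of the 10 acinar genes between 3.37 and 8.05 on the log2 CPM scale against 0.74 or less in the other 16 tumours. Rn7sk, Mir6236 and Lars2, whose reads move with library preparation and RNA quality, were high in the control tumours and are taken up with the differences between backgrounds below. Tissue was sequenced in bulk, so more cells of a type and more RNA per cell cannot be told apart in any result that follows.

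Promoters are shown for 4 genes that stand for the groups described below: 2 secreted products of alternative macrophages that rose with the antibodies, an interferon-induced antiviral gene that fell and a hypoxia-induced gene that fell. Each line gives the 250 bases before the RefSeq transcription start on the gene's own strand (GRCm38.p6), and capitals mark matches to the motif searched in that window. For Chil3 (chr3:106167565-106167814, minus strand) and Retnla (chr16:48842359-48842608, plus strand) the motif was TTC and GAA with 4 bases of any kind between them, the palindrome that STAT6 is known to bind. For Oas1a (chr5:120907526-120907775, minus strand) it was TTTC and TTTC with 2 bases between them, the core of the interferon-stimulated response element, and for Egln3 (chr12:54203875-54204124, minus strand) it was ACGTG, the core of the hypoxia response element.
Chil3: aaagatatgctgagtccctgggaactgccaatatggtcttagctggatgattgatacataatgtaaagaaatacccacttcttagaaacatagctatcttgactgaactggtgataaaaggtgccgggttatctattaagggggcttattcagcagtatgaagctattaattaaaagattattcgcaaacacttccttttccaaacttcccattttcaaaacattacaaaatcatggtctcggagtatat
Retnla: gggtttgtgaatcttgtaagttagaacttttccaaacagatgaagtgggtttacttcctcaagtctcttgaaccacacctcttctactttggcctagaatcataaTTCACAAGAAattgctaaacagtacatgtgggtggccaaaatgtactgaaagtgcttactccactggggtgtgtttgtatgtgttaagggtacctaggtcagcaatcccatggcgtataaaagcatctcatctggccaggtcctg
Oas1a: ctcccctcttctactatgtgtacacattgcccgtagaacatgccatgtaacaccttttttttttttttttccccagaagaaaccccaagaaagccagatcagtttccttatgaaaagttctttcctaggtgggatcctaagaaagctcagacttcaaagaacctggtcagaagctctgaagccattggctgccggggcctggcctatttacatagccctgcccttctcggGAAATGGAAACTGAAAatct
Egln3: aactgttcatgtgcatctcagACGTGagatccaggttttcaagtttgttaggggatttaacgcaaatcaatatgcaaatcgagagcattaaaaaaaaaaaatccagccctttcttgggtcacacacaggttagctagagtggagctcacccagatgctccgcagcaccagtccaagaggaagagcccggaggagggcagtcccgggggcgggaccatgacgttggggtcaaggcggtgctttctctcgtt

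Both strands were searched in 32851 RefSeq promoters of this length. Retnla held 1 match to the TTC and GAA palindrome, beginning 145 bases before its start, and the Chil3 window held none; 5.85% of all promoters hold the motif. Of 5 alternative activation genes with a promoter in the table, Retnla alone held it, and 6.76% of all genes hold it in a promoter. The Oas1a window held 2 overlapping matches to the TTTC repeat, beginning 20 and 14 bases before the start and read on the opposite strand, against 2.98% of all promoters with a match. Among 15 type I interferon genes with a promoter in the table, 7 held that motif, against 3.46% of all genes. Egln3 held 1 match to ACGTG, 229 bases before its start, and 16.6% of all promoters hold one. Of 11 hypoxia genes 8 held it, against 18.5% of all genes. A match describes letters in a window and is not evidence of binding.

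With 1 change per gene shared by the 3 backgrounds, 2308 of 18144 genes (12.7%) passed an adjusted p of 0.05 in edgeR's quasi-likelihood test. Of these, 1127 (6.21%) were higher with the antibodies and 1181 (6.51%) were lower. The higher genes moved further: 148 rose at least 2-fold and 34 fell at least 2-fold. Among the genes with the largest rises, Chil3 and Retnla are known from alternatively activated macrophages, and Rnase2a, Mpo and Il5ra from granulocytes, among other cells. Which cells held these RNAs was not measured. The rest encode a mucosal mast cell protease (Mcpt1), antibody chains (Ighm, Ighg3, Iglc1), a type VI collagen chain (Col6a5), a Ly6 family surface protein (Ly6k) and a monocyte-attracting chemokine (Ccl8). Those with the largest falls were Stk32b, Pgc, Aire, Cr2, Anxa13, Barx2, Nxf3, Vsig1, Lgals2, Aldh3a1, Mybpc1 and Dcstamp, by 1.04 to 1.91 on the log2 scale. Leaving out PARPi_CB replicate 3 gave 1464 genes in place of 2308, and leaving out 1 of the others gave 1582 to 2572.

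**Figure D1:**
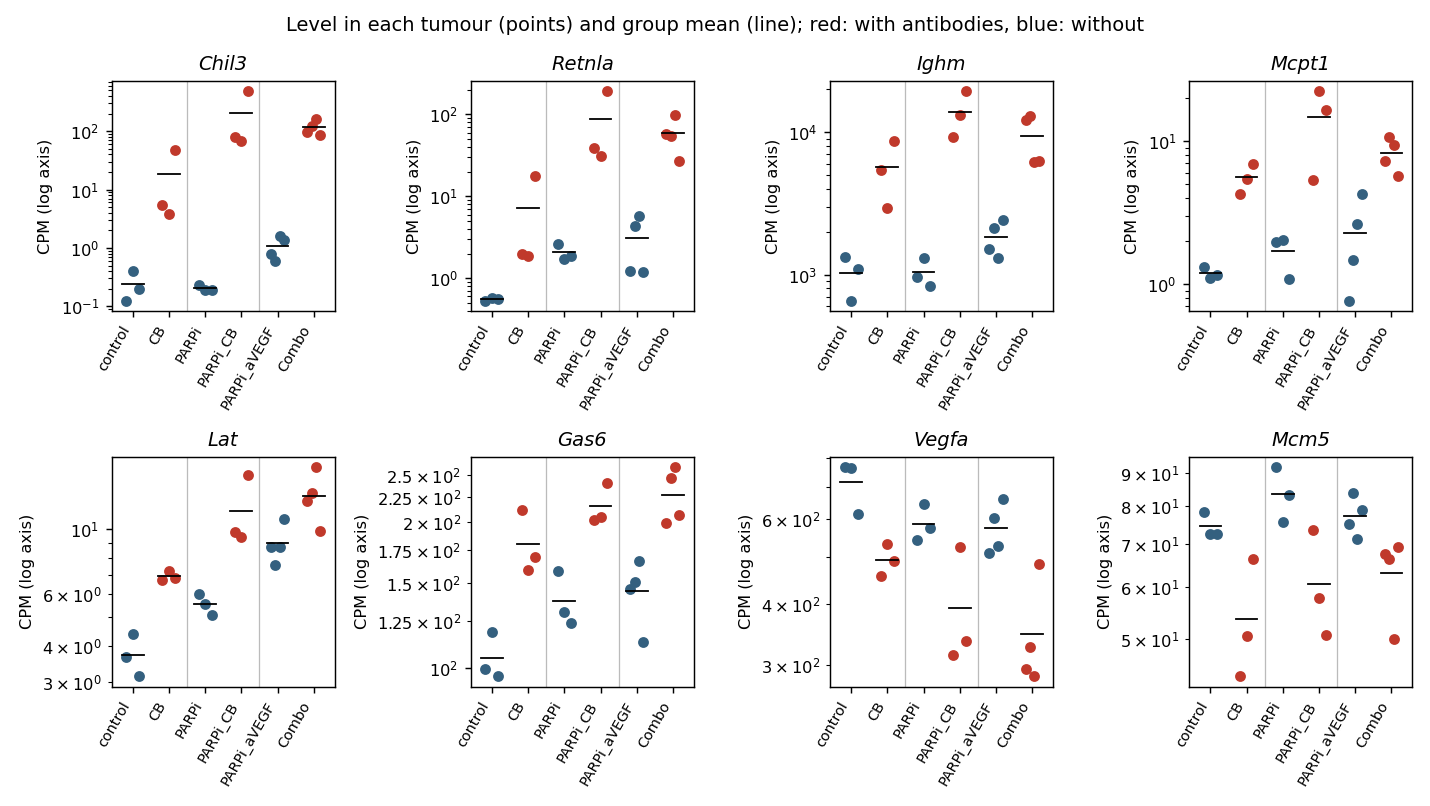
CPM on a log axis in each of the 20 tumours (points, red with antibodies and blue without) and the mean of each group (line) for 8 genes, with vertical lines between the 3 backgrounds. Chil3, Retnla, Ighm, Mcpt1 and Gas6 lie higher in every antibody tumour than in every tumour of the same background without antibodies, and Vegfa and Mcm5 lie lower.

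Chil3, a chitinase-like protein secreted by alternatively activated macrophages, had the largest common change. In the background with no other drug it read 0.126, 0.403 and 0.198 CPM in the control tumours and 5.34, 3.89 and 47.1 CPM in the CB tumours. With olaparib it read 0.23, 0.193 and 0.191 CPM in the PARPi tumours and 78.5, 69 and 477 CPM in the PARPi_CB tumours. With olaparib and anti-VEGFA it read 0.796, 0.589, 1.6 and 1.36 CPM in the PARPi_aVEGF tumours and 97.1, 123, 160 and 86.2 CPM in the Combo tumours. The lowest antibody tumour, at 3.89 CPM, was above the highest tumour without antibodies, at 1.6 CPM, although replicate 3 of CB and of PARPi_CB stood well above the others of their groups. The common log2 change was 7.55 ± 0.66 (SE; edgeR adjusted p = 6.41e-06). Within the backgrounds it was 6.27 ± 1.12, 9.96 ± 1.19 and 6.77 ± 0.86, and the difference between olaparib and no other drug, 3.69, had a 95% interval of -0.56 to 7.94.

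Retnla, a secreted resistin-like protein of the same macrophage state whose promoter carries the palindrome above, read 0.535 to 0.571 CPM in control and 1.98, 1.86 and 17.6 CPM in CB tumours. It read 1.74 to 2.59 CPM in PARPi and 38.6, 31.5 and 190 CPM in PARPi_CB tumours. In the third background the levels were 1.24, 4.3, 5.69 and 1.21 CPM without and 57.7, 53.9, 99.7 and 26.8 CPM with the antibodies. The groups did not overlap in any background, and the common log2 change was 4.51 ± 0.52 (edgeR adjusted p = 5.54e-05). Reads of Retnla and its close relative Retnlg could be split between them, so both are uncertain to that extent.

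Of the 8 genes listed for alternative activation, 3 rose, against 6.21% of all genes tested, and none fell. The list's median log2 change was 0.60 against 0.01 over all genes tested. The third was Arg1, arginase, at 1.51 ± 0.45 (edgeR adjusted p = 0.0344), which lost its call when any of 7 single tumours was left out and which overlapped in the third background, where its change was 0.35 ± 0.54. Ccl24, an eosinophil-attracting chemokine, changed by 0.82 ± 0.29 without passing (adjusted p = 0.0655), and Mgl2, Clec10a, Ear2 and Il4ra did not pass either, at -0.02 to 0.37. Rnase2a, an eosinophil-associated ribonuclease gene with near-identical relatives, was at 0 to 0.113 CPM in the 10 tumours without antibodies and at 0.0664 to 11.6 CPM in the 10 with them (edgeR adjusted p = 1.72e-05). Because it had no count in the PARPi tumours, no fold is given for it.

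Il1rl1, which encodes the interleukin 33 receptor ST2 carried by mast cells, type 2 lymphoid cells and some regulatory T cells, rose by 1.54 ± 0.18 (edgeR adjusted p = 5.24e-05). It read 1.57 to 3.82 CPM without antibodies, with a median of 2.72, and 3.87 to 13.3 CPM with them, with a median of 7.71, so the 10 and 10 tumours did not overlap. Ccl8 rose by 1.78 ± 0.23, from a median of 6.59 CPM (2.94 to 20.7) to 26 CPM (12.8 to 61.3). It overlapped across backgrounds but not within any of them.

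Among 12 tumour macrophage genes, 8 rose, against 6.21% of all genes tested, and none fell, at a median of 0.31. The complement genes C1qa, C1qb and C1qc rose by 0.25 to 0.33, the lipoprotein gene Apoe by 0.44 ± 0.08, the mannose receptor gene Mrc1 by 0.63 ± 0.13 and the phagocyte receptor gene Trem2 by 0.39. Csf1r, the receptor for the main macrophage growth factor, and Lyz2, lysozyme, changed by 0.13 and -0.04 and did not pass. None of 9 peritoneal macrophage genes passed (4 did at an unadjusted p under 0.05), against 12.7% of all genes tested. Their median was 0.53, with Gata6, the factor that defines those cells, at -0.01. Of 6 Fc receptor genes, 3 rose, against 6.21% of all genes tested. They were Fcgr2b, the inhibitory receptor for IgG, by 0.51 ± 0.10, Fcgr3 by 0.30 ± 0.08 and Fcgrt by 0.17. Of 10 dendritic cell genes 1 passed, near the 12.7% of all genes tested. It was Ccl22, a chemokine that draws regulatory T cells, which fell by 0.45 ± 0.12 on the log2 scale.

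Antibody genes formed the second large group. Ighm, the constant region of IgM, read 658 to 1325 CPM in control and 5405, 2921 and 8679 CPM in CB tumours. With olaparib it read 836 to 1315 CPM in PARPi and 9200, 13200 and 19230 CPM in PARPi_CB tumours. With olaparib and anti-VEGFA it read 1313 to 2411 CPM without and 12190, 13030, 6112 and 6278 CPM with the antibodies. Every antibody tumour was above every tumour without antibodies, and the common log2 change was 2.80 ± 0.27 (edgeR adjusted p = 1.59e-05). The change passed the test in each background, at 2.47 ± 0.41, 3.74 ± 0.44 and 2.35 ± 0.36.

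In all, 6 of 12 constant region genes rose, against 6.21% of all genes tested, and none fell, at a median of 0.97. The others that rose were Ighg1 by 1.74, Ighg3 by 2.01 ± 0.57, and the light chains Iglc1 by 1.82 ± 0.40, Iglc3 by 1.41 ± 0.29 and Igkc by 0.85 ± 0.22. The constant regions of IgA, IgD, IgE and of the IgG2 subclasses (Igha, Ighd, Ighe, Ighg2b and Ighg2c) did not pass, at -0.12 to 0.80. Not all were near 0 in each background: Ighd changed by -1.89, 0.36 and 1.74 and Igha by 1.57, -0.03 and -0.07. None of these changes passed, nor did their differences between backgrounds after adjustment. Ighg3 was spread more widely than Ighm, with 27.6 to 158 CPM without and 44 to 2168 CPM with antibodies, and lost its call without CB replicate 1. Of 186 variable, diversity and joining segments tested, 47 were higher, against 6.21% of all genes tested, and none lower. These genes are near-identical within families, so the counting could have split their reads.

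Of 12 plasma cell genes, 9 rose, against 6.21% of all genes tested, and none fell, at a median of 0.70. They included Irf4 and Prdm1, the factors that direct plasma cell formation, by 0.85 ± 0.20 and 0.52 ± 0.12, Tnfrsf17, the survival receptor BCMA, by 0.88 ± 0.20, and Jchain, which joins IgM and IgA chains, by 0.74. The list's median was 1.29 with no other drug, 0.63 with olaparib and 0.21 with olaparib and anti-VEGFA, and 8, 0 and 0 of its genes passed in the 3 backgrounds. Prdm1 rose by 0.93 ± 0.18 with no other drug and changed by 0.10 ± 0.15 in the third background. That is a difference of -0.83, with a 95% interval, not adjusted over genes, of -1.32 to -0.33. Its test of a difference between backgrounds did not pass after adjustment. Library quality also differed with the antibodies in both of these backgrounds, as given below, and cannot be told apart from this difference. Without the tumours of either the first or the second background none of the 12 genes passed.

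B cell genes did not move together. Fcrla and Cd79b rose, by 0.77 ± 0.16 and 0.55 ± 0.17, while Cr2, the complement receptor of mature B cells and follicular dendritic cells, fell by 1.47 on the log2 scale ± 0.35 (edgeR adjusted p = 0.0104). Cr2 read a median of 1.7 CPM (0.943 to 3.6) without and 0.697 CPM (0.189 to 1.33) with antibodies. Ms4a1, which encodes CD20, the B cell factor Pax5 and the rest of the list did not pass, and the list's median was 0.14. By background the medians were -0.49 with no other drug, 0.45 with olaparib and 0.35 with olaparib plus anti-VEGFA, and 4, 10 and 9 of the 12 changes were positive. With no other drug Cr2 and Bank1, a B cell signalling scaffold, passed as lower, Bank1 at -1.16 (edgeR adjusted p = 0.0468). Bank1 changed by 0.39 and -0.04 in the other backgrounds without passing, and its difference between backgrounds did not pass after adjustment. The Cd79b call was lost when any of 11 single tumours was left out.

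T cell genes rose as a set of small changes. Of 17 genes of the T cell receptor complex and its signalling, 15 rose and none fell, and all 17 had positive changes in each of the 3 backgrounds. The median was 0.66, with 0.75, 0.79 and 0.45 within the backgrounds. Lat, the adaptor that links the receptor to its signal, read 3.65, 4.37 and 3.14 CPM in control and 6.73, 7.21 and 6.8 CPM in CB tumours. It read 5.09 to 5.99 CPM in PARPi and 9.39 to 15.4 CPM in PARPi_CB tumours, and 7.54 to 10.9 CPM in PARPi_aVEGF and 9.87 to 16.3 CPM in Combo tumours. Only the last pair of groups overlapped, and the common log2 change was 0.80 ± 0.11 (edgeR adjusted p = 0.00044). Bcl11b, a factor that maintains T cell identity, rose by 0.74 ± 0.12 with no overlap in any background, and the receptor chain Cd3d rose by 0.69 ± 0.12. Of 20 T cell receptor gene segments tested, 1 was higher, near the 6.21% of all genes tested.

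Among 13 genes of cytotoxic lymphocytes, 5 rose, against 6.21% of all genes tested, and none fell, at a median of 0.56. Gzmk, a granzyme of effector memory CD8 T cells, rose by 1.32 ± 0.23 (edgeR adjusted p = 0.0016), from a median of 0.465 CPM (0.269 to 1.28) to 1.3 CPM (0.849 to 2.18). Eomes, a factor of CD8 and natural killer cells, rose by 0.82 ± 0.14, and Nkg7, Cd8b1 and Ccl5 rose by 0.53 to 0.79. Gzmb, Gzma, Prf1 and Ifng, the killing proteins and interferon gamma, had changes of 0.40 to 0.75 that did not pass. None of 8 natural killer receptor genes passed, against 12.7% of all genes tested, and the difference was not tested. None did at an unadjusted p under 0.05 either, and their median was 0.23. The count of 5 became 8 without Combo replicate 4.

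Of the genes for the targets of the antibodies, Ctla4 passed and Cd274 did not. Ctla4 rose by 0.75 ± 0.17 (edgeR adjusted p = 0.00851), with 1.62 to 9.44 CPM without and 4.46 to 11.7 CPM with antibodies. Cd274, which encodes PD-L1, changed by 0.22 ± 0.12 (edgeR adjusted p = 0.246) and Pdcd1, which encodes PD-1, by 0.31 ± 0.13 (adjusted p = 0.134). The CTLA-4 ligand genes Cd80 and Cd86 changed by 0.13 ± 0.12 and 0.14 ± 0.08 and did not pass. Of the 14 checkpoint genes 4 rose, against 6.21% of all genes tested, and none fell. Besides Ctla4 they were the second PD-1 ligand Pdcd1lg2 by 0.90 ± 0.21, Vsir by 0.33 ± 0.09 and Cd96 by 0.41 ± 0.12. The Cd96 call was lost without PARPi_CB replicate 3 or Combo replicate 3. Foxp3, the defining factor of regulatory T cells, and Tnfrsf18 rose by 0.38 ± 0.12 and 0.30 ± 0.10 among 7 regulatory T cell genes, but their calls were lost when any of 15 and 13 single tumours was left out.

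Mast cell genes rose with the antibodies, with 6 of 8 higher, against 6.21% of all genes tested, and a median of 0.96. Mcpt1, a mast cell protease with close relatives in its cluster that was in no list, read 1.11 to 1.32 CPM in control and 4.28 to 6.95 CPM in CB tumours. It read 1.08 to 2.02 CPM in PARPi and 5.29, 22.2 and 16.3 CPM in PARPi_CB tumours, and 0.766 to 4.27 CPM in PARPi_aVEGF and 5.73 to 10.6 CPM in Combo tumours. The groups did not overlap in any background, and the log2 change was 2.34 ± 0.30 (edgeR adjusted p = 0.000144). Ms4a2 and Fcer1a, chains of the IgE receptor, rose by 1.27 ± 0.22 and 1.06, and the proteases Tpsb2 and Cpa3 by 1.15 ± 0.22 and 0.86 ± 0.20.

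The list's median was 0.24 with no other drug, 0.94 with olaparib and 1.36 with olaparib and anti-VEGFA, the opposite order to the plasma cell list. Tpsb2 changed by 0.31 ± 0.31 in the first background and by 1.78 ± 0.28 in the third. That is a difference of 1.47, with a 95% interval, not adjusted over genes, of 0.60 to 2.34. Its test of a difference between backgrounds did not pass after adjustment. As for Prdm1, this difference cannot be told apart from library quality. Kit, the growth factor receptor that mast cells share with other cells, fell by 0.43 on the log2 scale ± 0.09. Without the 4 tumours that carried acinar RNA 2 of the 8 genes were called higher.

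Il5ra, the interleukin 5 receptor of eosinophils and some B cells, rose by 2.76 ± 0.34 (edgeR adjusted p = 0.000131). It read 0.0756 to 0.567 CPM without antibodies, with a median of 0.353, and 0.565 to 4.14 CPM with them, with a median of 1.81, so that only the ends of the ranges met. Ccr3, the eotaxin receptor, rose by 2.02 ± 0.57 and lost its call without PARPi replicate 3 or PARPi_CB replicate 3. Prg2, the major granule protein of eosinophils, did not pass at 0.47 ± 0.24, with 1.54 ± 0.33 in the first background and -0.17 ± 0.32 in the second. Epx, which encodes eosinophil peroxidase, had too few counts to test. Of 8 neutrophil genes 3 rose, against 6.21% of all genes tested: Csf3r by 0.45 ± 0.07, Retnlg by 2.98 ± 0.65 and Camp by 2.26 ± 0.68. Mpo, myeloperoxidase, rose by 2.77 ± 0.90. Camp and Mpo were near 0 CPM in most tumours and lost their calls when any of 10 and 13 single tumours was left out.

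Antigen presentation genes rose by small amounts. Of 13 class I genes 4 rose, against 6.21% of all genes tested, and none fell. They were led by H2-Q4 at 0.48 ± 0.08 and H2-T23 at 0.31 ± 0.06. All 13 changes were positive, with a median of 0.20. The smallest of the 4, H2-D1 at 0.20 ± 0.06, lost its call when any of 16 single tumours was left out. The peptide transporter gene Tap2 rose by 0.26 ± 0.07, by 0.51 ± 0.09 with no other drug and by 0.04 ± 0.08 in the third background, where it did not pass. Of 10 class II genes 5 rose, against the same 6.21%. Among them H2-Ab1 rose by 0.31 ± 0.08, from a median of 830 CPM (579 to 1022) to 918 CPM (847 to 1268). The H2 genes are a family of close sequence, and reads could have been split among them.

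Interferon-gamma-inducible genes did not pass: 0 of 15 were called by edgeR, against 12.7% of all genes tested. At an unadjusted p under 0.05 there were 2, and the list's median was 0.14. The median was 0.53 with no other drug, 0.06 with olaparib and -0.10 with olaparib and anti-VEGFA, and the DESeq2 test called 1. Type I interferon response genes went the other way, with 8 of 21 lower, against 6.51% of all genes tested, none higher and a median of -0.28. Oas2, an antiviral synthetase gene, read 49.6 to 67.7 CPM in control and 42.7 to 51.1 CPM in CB tumours. It read 69.1 to 88.1 CPM in PARPi and 28.7 to 55.7 CPM in PARPi_CB tumours, and 63.8 to 104 CPM in PARPi_aVEGF and 40.8 to 66 CPM in Combo tumours. The groups overlapped in the first and the third background, and the log2 change was -0.55 ± 0.12 (edgeR adjusted p = 0.00748). Oas1a, whose promoter is shown above, fell by 0.39 on the log2 scale ± 0.09.

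Ifi44, Oas3, Oasl1, Rtp4 and the RNA sensor genes Ifih1 and Ddx58 fell by 0.24 to 0.49 on the log2 scale. The list's median was -0.00448 with no other drug, -0.47 with olaparib and -0.31 with olaparib and anti-VEGFA, and without the olaparib background none of the 21 genes passed. Cgas, the sensor of cytosolic DNA, fell by 0.29 ± 0.06 on the log2 scale and Ifi204, another DNA sensor gene, by 0.22 ± 0.05, while Tmem173, which encodes STING, changed by 0.04 and did not pass. Among chemokines and their receptors 4 of 13 rose, against 6.21% of all genes tested. These included Ccl8, Ccl3 by 0.63 ± 0.11 and Cxcr6 by 0.64 ± 0.17. Cxcl12, a chemokine of stromal cells, fell by 0.24 ± 0.06 on the log2 scale.

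**Figure D2:**
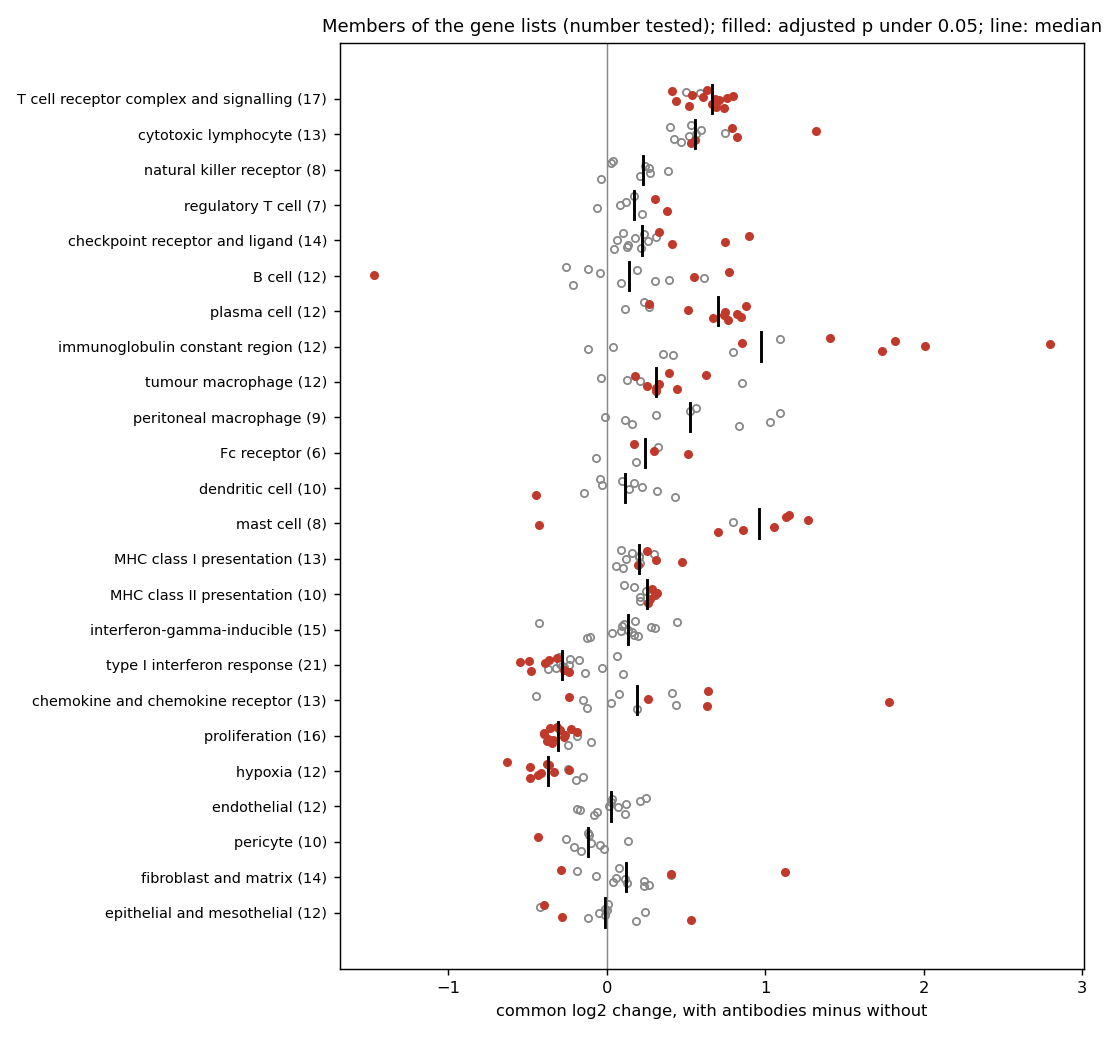
Common log2 change of each tested member of the gene lists, with antibodies minus without (points, filled where the adjusted p was under 0.05), and the median of each list (line). T cell, plasma cell, antibody and mast cell lists lie mostly to the right of 0, and the type I interferon, proliferation and hypoxia lists lie mostly to the left.

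Proliferation genes fell together. Of 16 genes 13 fell and none rose, all 16 changes were negative, and the median was -0.31, against 6.51% of all genes called lower. Mcm5, part of the helicase that opens DNA for replication, read 78.4, 72.5 and 72.3 CPM in control and 43.8, 50.5 and 66.4 CPM in CB tumours. It read 75.6 to 91.8 CPM in PARPi and 50.7 to 73.5 CPM in PARPi_CB tumours, and 71.3 to 83.7 CPM in PARPi_aVEGF and 49.9 to 69.1 CPM in Combo tumours. The antibody tumours were the lower ones in each background without overlap, and the log2 change was -0.40 ± 0.08 (edgeR adjusted p = 0.00423). The thymidylate synthase gene Tyms, also without overlap, fell by 0.31 ± 0.06 on the log2 scale, Mki67 by 0.40 and the cyclin gene Ccnb1 by 0.37 ± 0.08. The list's median was -0.31, -0.26 and -0.34 in the 3 backgrounds, and no gene of it passed within any single background.

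Hypoxia genes fell as well: 9 of 12 were lower, against 6.51% of all genes tested, and none higher, with 12 negative changes and a median of -0.37. The list's median was -0.39, -0.16 and -0.51 in the 3 backgrounds, where 1, 2 and 0 of the changes were positive. No gene of the list passed within any single background. Vegfa read 613 to 768 CPM in control and 458 to 532 CPM in CB tumours. It read 542 to 643 CPM in PARPi and 315, 526 and 336 CPM in PARPi_CB tumours, and 510 to 658 CPM in PARPi_aVEGF and 294, 326, 284 and 484 CPM in Combo tumours. No group overlapped its partner, and the log2 change was -0.63 ± 0.10 (edgeR adjusted p = 0.00123), with -0.54, -0.58 and -0.73 within the backgrounds. Pdk1, the kinase that keeps pyruvate out of mitochondria, fell by 0.48 ± 0.08 on the log2 scale, also without overlap, the glycolytic gene Eno1 by 0.41 ± 0.07 and Egln3, whose promoter holds the ACGTG match above, by 0.43 ± 0.09. P4ha1, Adm and Bnip3 were lower without passing.

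Counts of the vessel and stroma lists are read against 12.7% called over all genes tested, and the difference was not tested. None of 12 endothelial genes passed (1 was higher and 2 lower at an unadjusted p under 0.05), with a median of 0.03, and none of 5 genes for leukocyte adhesion on vessels did. Angpt1, a ligand that steadies vessels, was the 1 of 8 angiogenic genes that rose, by 0.56 ± 0.13, with 0.81 and 0.91 in the first 2 backgrounds and 0.13 ± 0.16 with anti-VEGFA present, where it did not pass. Among 10 pericyte genes Notch3 fell by 0.43 ± 0.11 on the log2 scale. Of 14 fibroblast and matrix genes Lum and Loxl1 rose and Postn fell, and the collagen genes Col1a1, Col1a2 and Col3a1 did not pass, at 0.13 to 0.27. Lum, a small proteoglycan that orders collagen, rose by 1.13 ± 0.15 (edgeR adjusted p = 0.000227), from a median of 26.1 CPM (15.6 to 49.6) to 67 CPM (23.4 to 93.3). Col6a5 rose by 2.43 ± 0.35, from a median of 13.7 CPM (7.07 to 37.3) to 91.5 CPM (14.3 to 227). The Postn call was lost without PARPi_CB replicate 3.

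Of 12 epithelial and mesothelial genes, 1 rose and 2 fell, against 12.7% of all genes called, with a list median of -0.01. Msln, Wt1, Krt7 and Muc16 had pooled changes of -0.01 to 0.01, but not all were near 0 in each background. Krt7 changed by -0.64, 0.03 and 0.44 in the 3 backgrounds and Msln by -0.19, -0.11 and 0.23, with unadjusted interaction p of 0.00113 and 0.00549 that did not pass after edgeR adjustment (adjusted p = 0.457 and adjusted p = 0.495). The list's median was -0.21 with no other drug, where 3 genes passed, and -0.07 and 0.05 in the other backgrounds, where none did. Krt19 fell by 0.28 ± 0.07 on the log2 scale. Upk3b fell by 0.40 ± 0.12 on the log2 scale and Epcam rose by 0.53 ± 0.17, but these calls were lost when any of 14 and 15 single tumours was left out. The largest falls lay outside that list. Pgc, the pepsinogen C gene, read 35.2, 48 and 36.2 CPM in control and 6.22, 9.77 and 3.38 CPM in CB tumours, 18.1 to 21.8 CPM in PARPi and 2.35 to 6.51 CPM in PARPi_CB tumours, and 4.88 to 12.2 CPM in PARPi_aVEGF and 3.28 to 9.69 CPM in Combo tumours. It overlapped only in the third background, where olaparib and anti-VEGFA alone were already low, and its common change was -1.72 ± 0.32 (edgeR adjusted p = 0.00284). Its change in the third background was 2.01 above that in the first, with a 95% interval, not adjusted over genes, of 0.79 to 3.23. After adjustment its test of a difference between backgrounds did not pass. In these 2 backgrounds library quality also differed with the antibodies, as given below, and the 2 cannot be told apart.

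Aire, known for the display of tissue antigens in the thymus, read 2.75 to 3.43 CPM in control and 1.29 to 1.45 CPM in CB tumours. It read 1.27 to 5.27 CPM in PARPi and 0.611 to 0.711 CPM in PARPi_CB tumours, and 1.62 to 3.29 CPM in PARPi_aVEGF and 0.519 to 1.03 CPM in Combo tumours. No group overlapped its partner, and the log2 change was -1.65 ± 0.24 (edgeR adjusted p = 0.000467). The RNA export gene Nxf3 fell by 1.20 ± 0.17 on the log2 scale, also with no overlap. Pgc and Anxa13 were listed because earlier results of these data had shown them lower, so their falls are not independent evidence; of the other members of that list Mme fell by 0.38 ± 0.10 and Cyp17a1 did not pass.

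A stricter reading asks for tumours that separate in all 3 backgrounds at once. Antibody tumours lay wholly above their partners in each background for 71 genes (0.391% of genes tested) and wholly below for 76 (0.419%). All of these genes also passed the common test, but the same tumours gave both readings, so this is a description and not further evidence. By p the first of the higher genes were Chil3, Ighm, Rnase2a, Tmem26, Ly6d, Cpne7, Gas6, Nr2e3, Il1rl1 and Retnla. Gas6, a ligand of the TAM receptors by which macrophages clear dying cells, read 96.4 to 166 CPM without and 159 to 259 CPM with antibodies. Its change was close to equal in the backgrounds, at 0.78 ± 0.14, 0.65 ± 0.14 and 0.66 ± 0.13. The first of the lower genes were Arhgap28, Ugp2, Cobll1, Slc44a1, Zdhhc2, Elovl6, Aire, Nxf3, As3mt and Ccdc81.

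Several of those falls were small and even. Ugp2, which makes UDP-glucose for glycogen, fell by 0.22 ± 0.02 on the log2 scale, from a median of 163 CPM (153 to 179) to 143 CPM (131 to 148), so the 10 and 10 tumours did not overlap. Arhgap28, a GTPase-activating protein, fell by 0.36 ± 0.04, with -0.39, -0.43 and -0.28 within the backgrounds. Slc44a1, a choline transporter, and Elovl6, a fatty acid elongase, fell by 0.22 ± 0.03 and 0.33 ± 0.05. Cobll1 was less even, at -0.998 ± 0.11 with no other drug, -0.55 ± 0.11 with olaparib and -0.38 ± 0.10 with olaparib and anti-VEGFA. The change of Cobll1 in the third background was 0.62 above that in the first, with a 95% interval, not adjusted over genes, of 0.31 to 0.93. Its test of a difference between backgrounds did not pass after adjustment. This difference, too, cannot be told apart from library quality, which differed with the antibodies in both backgrounds.

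**Figure D3:**
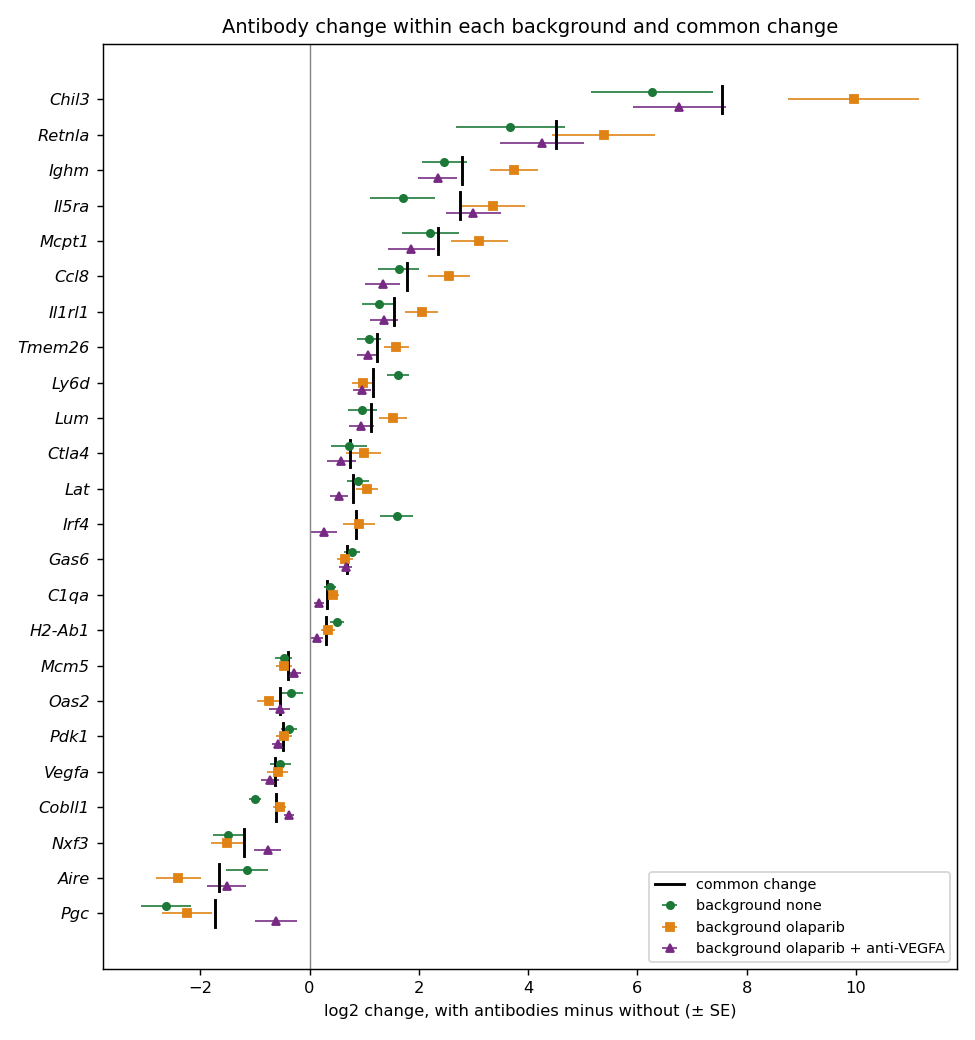
Log2 change with antibodies minus without (± SE) within each background (symbols) and the common change (black line) for the genes named on the left. The changes of Gas6, Tmem26, Vegfa and Mcm5 lie close together, while Chil3 and Retnla are largest with olaparib and Irf4, Pgc and Cobll1 are largest with no other drug.

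The 3 backgrounds share no tumour, so each can be read with genes chosen in the other 2. With no other drug held out, 296 genes were higher in the other backgrounds and 266 of them (89.86%) had the same sign in it, with a median change of 0.59 where chosen and 0.38 where read. Of the 8545 tested genes with a positive change in the other 2 backgrounds, called or not, 67.74% kept that sign. With olaparib held out, 186 of 193 higher genes (96.37%, against 67.57% of all genes positive in the other 2) kept their sign, with medians of 0.59 and 0.68. With olaparib plus anti-VEGFA held out, 857 of 1036 (82.72%, against 66.76%) did, and the median went from 0.51 where chosen to 0.15 where read.

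Lower genes carried over in the same way. The same sign was found for 257 of 268 (95.9%, against 68.56% of all genes negative in the other 2) with no other drug, for 208 of 217 (95.85%, against 71.52%) with olaparib and for 746 of 881 (84.68%, against 63.89%) with olaparib plus anti-VEGFA. In the last of these the median went from -0.29 to -0.12. In the held-out tumours alone, 38, 35 and 8 of the higher genes and 23, 6 and 1 of the lower ones passed the test, where 286 of 16750, 118 of 16940 and 12 of 16740 genes tested passed in either direction.

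**Figure D4:**
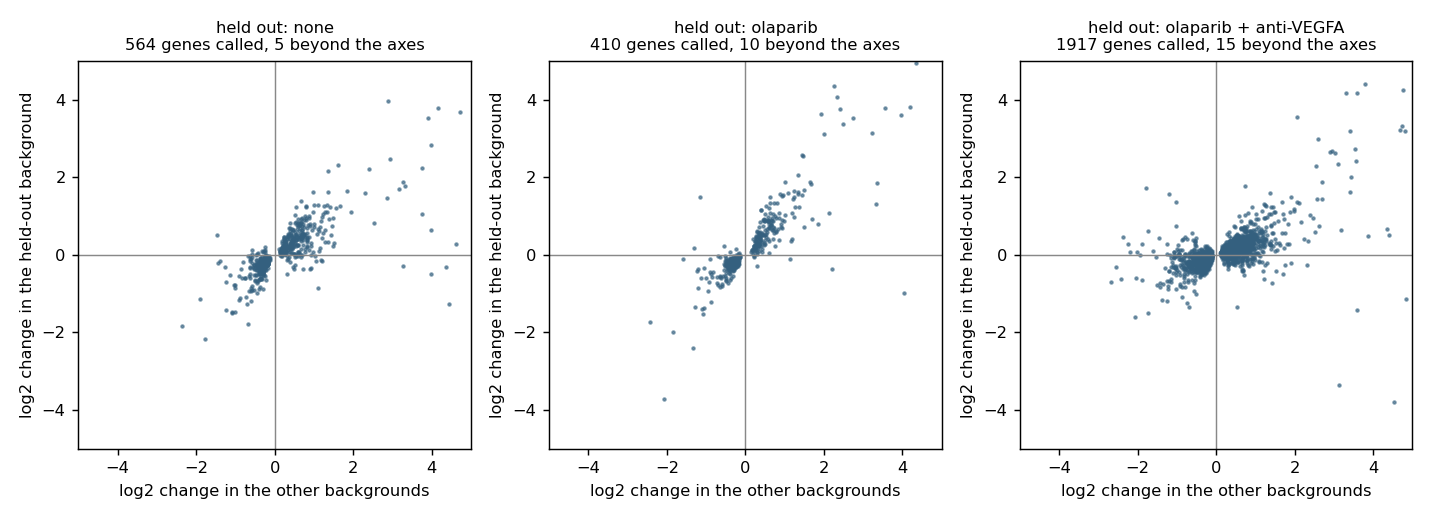
Log2 change of genes called in 2 backgrounds (horizontal) and in the third, held-out background (vertical); 5, 10 and 15 genes lie beyond the axes. Most points lie to the lower left and upper right of the origin in each panel, and with olaparib plus anti-VEGFA held out they lie nearer to 0 on the vertical axis.

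Read 1 background at a time, with the spread estimated from all 20 tumours, the antibodies changed 400 genes (2.2%) with no other drug, 229 (1.26%) with olaparib and 16 (0.0882%) with olaparib plus anti-VEGFA. With no other drug 223 of them (1.23%) were higher and 177 (0.976%) lower, with olaparib 160 (0.882%) and 69 (0.38%), and with olaparib plus anti-VEGFA 14 (0.0772%) and 2 (0.011%). Only 5 genes passed in all 3, and 1862 of the 2308 genes of the common effect (80.7%) passed in none alone. These counts rest on few tumours: the 400 became 72 without control replicate 2, 182 and 137 without control replicates 1 and 3, and 148 and 106 without CB replicates 1 and 2. The 229 became 62, 26 and 37 without PARPi replicates 1, 2 and 3 and 30 without PARPi_CB replicate 3. The 16 became 72 without Combo replicate 4, whose mean of the quality RNAs (4.62 on the log2 CPM scale) lay within the 4.47 to 4.82 of the control tumours, and 6 or fewer without any other single tumour of that background. The DESeq2 test gave 1031, 811 and 251. In the first and the third background the quality RNAs also separated tumours with antibodies from those without, as given below. For those counts library quality and the antibodies cannot be told apart.

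Of the 2308 genes 2283 (98.9%) had the same sign in all 3 backgrounds, against 46.5% of all genes tested; since the same tumours gave the call, this is a description. The 1127 higher genes had median changes of 0.43, 0.47 and 0.27 in the backgrounds with no other drug, with olaparib and with olaparib plus anti-VEGFA, and the 1181 lower genes of -0.25, -0.23 and -0.19. A direct test of whether the change differed between backgrounds called 0 genes with edgeR, with 1355 (7.47% of genes tested) at an unadjusted p under 0.05. limma called 0 and DESeq2 called 70, and 1 or 2 genes passed edgeR when PARPi replicate 3, CB replicate 3 or Combo replicate 1 was left out. Of the genes of the common effect, 249 (10.8%) had an unadjusted interaction p under 0.05.

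Of the 8 genes named for the smallest interaction p, 3 were the RNAs of library quality. Lars2, whose reads include ribosomal RNA fragments, read 69.4 to 72.8 CPM in control and 34.4 to 40 CPM in CB tumours, 34.6 to 49.5 CPM in PARPi and 33 to 39.8 CPM in PARPi_CB tumours, and 27.2 to 33.6 CPM in PARPi_aVEGF and 32.8 to 53.5 CPM in Combo tumours. Its change was -0.92 ± 0.15, -0.30 ± 0.15 and 0.57 ± 0.13 (for the interaction, edgeR adjusted p = 0.0643). Rn7sk, the scaffold of a transcription pausing complex, changed by -3.06, -0.61 and 1.73, and Mir6236, which overlaps ribosomal RNA sequence, by -1.35, -0.71 and 1.36. None of the 3 passed the common test, at -0.41 to -0.10, so these RNAs moved in opposite directions and largely cancelled in the pooled change.

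Their part in the gene changes was read only by a covariate. With the mean of these RNAs in the model 2052 genes passed the common test, 1989 of them among the 2308. The counts within backgrounds became 0, 92 and 0. That mean was 4.47 to 4.82 in control and 2.74 to 3.075 in CB tumours. It was 2.72 to 2.81 in PARPi_aVEGF and 2.96 to 4.62 in Combo tumours. Library quality and the antibodies therefore cannot be told apart within the first and the third background. Scand1 and Cebpd, transcription factor genes, changed by 2.52 ± 0.41 and 0.90 ± 0.18 with no other drug and by -0.48 ± 0.30 and -0.42 ± 0.15 in the third background, the same order with opposite signs. Zmynd15, a zinc finger gene, changed by 0.49 ± 0.08, 0.04 ± 0.08 and -0.12 ± 0.07 over the backgrounds, and Tsc22d3, a glucocorticoid-induced gene, by -0.32 ± 0.12, 0.37 ± 0.12 and 0.54 ± 0.10. Svep1, a matrix protein gene, showed no such reversal, at 0.73 ± 0.15, 1.06 ± 0.15 and 0.03 ± 0.13. The difference between the third and second backgrounds was -1.02, with a 95% interval, not adjusted over genes, of -1.43 to -0.62. All these genes were chosen by their small interaction p and none passed after adjustment, so that interval is a description.

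**Figure D5:**
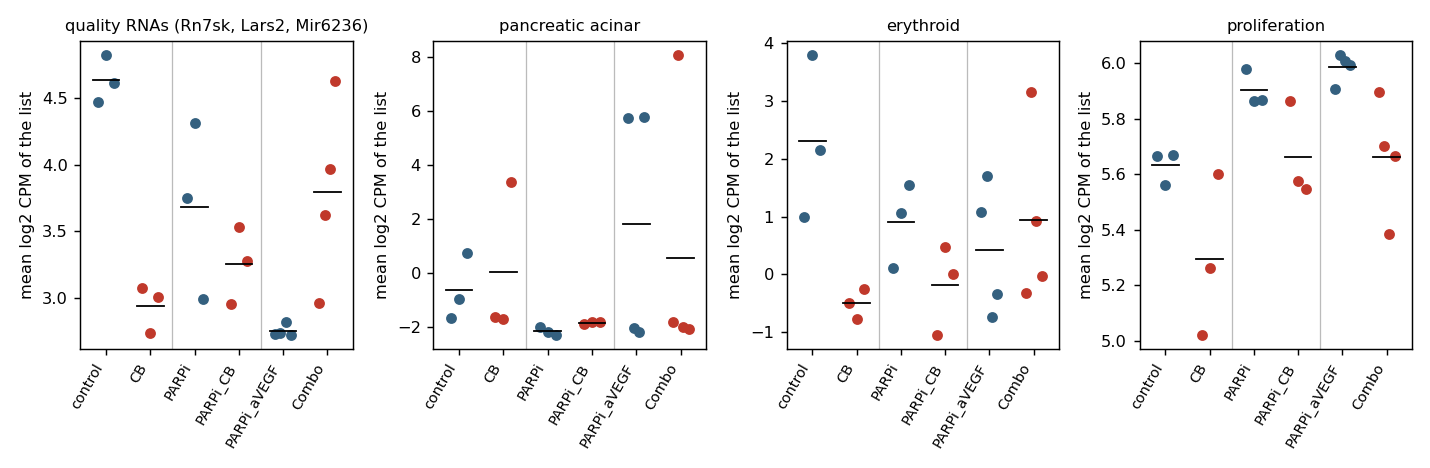
Mean log2 CPM of 4 gene lists in each tumour (points, red with antibodies and blue without) with the group mean (line). The group mean of the quality RNAs is highest in control and lowest in PARPi_aVEGF tumours, Combo replicate 4 lies among the control tumours at 4.62, acinar RNA is high in 4 tumours, and the proliferation mean is lower with antibodies in each background.

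RNA of neighbouring tissue and blood did not pass for any listed gene, against 12.7% of all genes tested. The medians of the common change were 1.91 for 10 pancreatic acinar genes, 0.63 for 8 adipocyte genes, -0.50 for 6 skeletal muscle genes and -1.15 for 7 erythroid genes, with 0, 1, 0 and 0 genes higher and 0, 0, 1 and 2 lower at an unadjusted p under 0.05. Erythroid RNA moved with the backgrounds, with medians of -3.12, -1.36 and 0.29. Without the 4 tumours that carried acinar RNA 1705 genes passed the common test, 1415 of them among the 2308. The part of these tissues in the other changes was not tested further. None of 11 immediate early and heat shock genes passed, at a median of 0.25, and the drug target genes Parp1 and Parp2 changed by -0.09 ± 0.04 and 0.01 ± 0.03 without passing.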

How the data were processed

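Per the labels, stranded whole-transcriptome libraries were made from total RNA of frozen tumour. Per the submitters' processing notes, reads were aligned to GRCm38 with STAR and counted with HTSeq; versions, annotation release and strand setting are not given in the sources used here, so antisense overlaps are uncertain. The deposited count table holds whole-number counts per Ensembl gene, and a second deposited table holds the authors' log2 values of RPKM plus 1, used only as an alternative.

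Tests ran on the counts in R 4.3.3 with edgeR 4.0.16 (TMM, glmQLFit and glmQLFTest, and filterByExpr by treatment group at min.count 10 and min.total.count 15) and Benjamini-Hochberg adjustment over the 18144 genes tested, called at an adjusted p under 0.05. The common effect came from a model with background and antibodies. The changes within backgrounds and the interaction came from a model with 1 coefficient per treatment group, and all 20 libraries shared 1 estimate of the spread. For the held-out reading, genes were called in 2 backgrounds and read in a separate fit of the third. CPM was scaled by effective library sizes, list means are of log2 CPM at a prior count of 2, and an SE is the size of the log2 change over the root of its F statistic. Symbols came from GENCODE M21, which matched 55227 identifiers, and promoters from RefSeq.

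Named genes had a mean of at least 1 CPM: the 12 largest common changes each way with the same sign in 3 backgrounds, the 10 smallest p each way among genes whose libraries did not overlap in any background, the 8 smallest interaction p and up to 4 members per list by p, plus drug targets; further list members are named from the list results after their values were seen. Unnamed gene models, pseudogenes and receptor segments were left out of that rule. The comparison, the 38 gene lists and the named genes were chosen with earlier results of these data known. Some list members are counted but not reported by name here. Scripts were tested on simulated data. Replicates of a group differed by more than counting noise, by 20 to 144 times in chi-squared over its degrees of freedom, and none was counted as a duplicate. Alternatives were other size factors, no filter, a replicate block, a quality covariate, leaving out libraries or backgrounds, equal weight of backgrounds, DESeq2 1.42.0 and limma 3.58.1.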

Additional observations from a re-analysis of the deposited data

Results flagged for a closer look

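In groups of 4 tumours, 12 values stood apart from the other 3 by more than Dixon's 95% limit. About 1 in 20 groups is expected to do so by chance. The number of groups searched is not given here, so the 12 are not shown to exceed that share. No cause was tested. In Combo, replicate 3 was the lowest for Mcm5 at 49.87 CPM (the next at 66.27) and for Elovl6 at 19.94 CPM (22.15). The same tumour was the highest for Cd79b at 31.59 CPM (15.97), Cd6 at 14.24 CPM (10.77), Pdcd1lg2 at 8.641 CPM (5.225) and Tmem26 at 7.346 CPM (5.063), so 6 of the 12 values came from it. In PARPi_aVEGF, replicate 2 was the lowest for Igkc at 11700 CPM (19160) and Prg2 at 12.1 CPM (14.96), and the highest for Tmem26 at 3.032 CPM (2.505) and Retnlg at 0.7066 CPM (0.1768). Replicate 1 of that group was the highest for Cobll1 at 51.83 CPM (46.02), and replicate 3 for Camp at 0.6928 CPM (0.08832).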

How the results depend on the processing

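The common effect held 2308 genes, and with all 20 tumours kept the alternatives gave 1722 to 2895: DESeq2 size factors gave 2275, no filter 1722, equal weight of backgrounds 2567, the quality covariate 2052, the DESeq2 test 2895 and limma on the deposited log2 RPKM 2016. Without the tumours carrying acinar RNA 1705 genes passed, without the background with no other drug 600 genes passed, without olaparib 414 and without olaparib plus anti-VEGFA 1958; these fits use fewer tumours. Leaving out single tumours gave 1464 to 2572 genes for the common effect, 0 to 2 for the interaction, 72 to 316 with no other drug, 26 to 293 with olaparib and 0 to 72 with olaparib plus anti-VEGFA. The interaction count of 0 became 5 with no filter, 1 without the tumours carrying acinar RNA and 70 with DESeq2. The 400 genes with no other drug became 0 with the quality covariate, whose values were apart between control and CB tumours, and 1031 with DESeq2. The 229 with olaparib became 92 and 811 in the same order. The 16 with olaparib plus anti-VEGFA became 0 and 251, 63 with no filter and 3 without the tumours carrying acinar RNA. The cause was not tested. Counts of genes keeping their sign in a held-out background stayed within 1.5 times under DESeq2 size factors and no filter, both added after the data were seen.

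Groups share replicate numbers, but the labels state no pairing. Same-numbered tumours with and without antibodies in 1 background did not deviate together, with correlations of -0.128 to 0.127. Same-numbered tumours of different backgrounds were not compared, so a batch shared by replicate number was not tested by these correlations. With the replicate block 2156 genes passed the common test, 2033 of them among the 2308, and 54 passed with olaparib plus anti-VEGFA. No named gene that passed changed sign under any alternative run. Depth limits genes near 0 CPM, such as Mpo, Camp and Rnase2a.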
